A study of Mus musculus with 68 samples.

Results

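The mineralisation genes are 10 mouse genes that bone-forming and late cartilage cells use to deposit calcium phosphate: Alpl, Phospho1, Enpp1, Ank, Phex, Slc13a5, Slc37a2, Ibsp, Spp1 and Dmp1. They were chosen by name with earlier results of these data known, and all 10 were found among the 23420 gene symbols of the deposited count table. They were followed in laser-captured cartilage of the growth plate, whose chondrocytes drive the lengthening of long bones, from mixed-background mice aged 2, 3 or 28 days after birth (P2, P3 and P28). The 68 libraries came from the hypertrophic zone (enlarged, oldest cells), the resting zone (reserve cells) and the proliferative zone (columns of dividing cells). All animals were untreated as far as the labels say, and no genotype is given. P28 sections were fixed in xylene (5 hypertrophic, 4 resting and 5 proliferative libraries) or in ethanol (9 hypertrophic, 8 resting and 9 proliferative libraries). P2 sections were fixed in ethanol (8 hypertrophic, 9 resting and 8 proliferative libraries), and the single P3 animal gave 1 ethanol library per zone.

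Cartilage mineral forms when phosphate is freed near small vesicles that late chondrocytes release and pyrophosphate, which blocks crystal growth, is broken down. Alkaline phosphatase (Alpl) splits pyrophosphate and Phospho1 frees phosphate inside the vesicles, while Enpp1 makes pyrophosphate and Ank lets it, or its precursor ATP, leave the cell. Phex is a membrane peptidase whose loss causes inherited low blood phosphate and soft bone, and acidic secreted proteins of the SIBLING family (Ibsp, Spp1 and Dmp1) bind calcium and collagen and promote or restrain crystals.

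Depth ranged from 748 to 3347722 counts per library, and ethanol libraries of at least 100000 counts (26 of 51 at P2 and P28) were added up for each animal and zone, giving 21 sums of 108601 to 3347722 counts, 3 animals per zone at P28 and 4 at P2. Values are given in the order of animals A, B and D at P28, and at P2 of animals A, C, D and G in the hypertrophic, A, D, F and G in the resting and A, D, E and G in the proliferative zone. The tests compare zones within animals, and P2 animals C, E and F gave a single zone each. The P2 zone changes therefore rest on animals A, D and G. The labels of P28 animal B and P2 animal D name animals in the plural, so these can be pools, and p-values measure the spread between these sums. Labels of P28 animals A and B and P2 animal C also carry trailing numbers, which were dropped to define the animal. The P28 animal A hypertrophic and resting sums come from libraries with unlike trailing numbers. Their pairing therefore assumes that both labels mean the same animal or pool. Levels below are CPM, counts scaled to a common library size with TMM factors, with SD over these animals. Much of the depth was Rn45s, a ribosomal RNA symbol, with a median share of 59.3% in P2 and 41.7% in P28 hypertrophic ethanol libraries. The P28 animal D hypertrophic sum joins libraries with 94.0% and 73.9% of Rn45s. After TMM scaling its 1690 Alpl counts of 2132569 read as 4170 CPM. Of the 252800 counts of the P2 animal C hypertrophic sum, 20032 were not Rn45s, Lars2 or Glra2. The hypertrophic capture held its marker genes: the list of 7 hypertrophic chondrocyte genes summed to 59270 to 104300 CPM in P28 hypertrophic sums, against 2200 to 6718 CPM in P28 proliferative sums. At P2 it summed to 8392 to 67400 CPM in hypertrophic sums and to 581.4 to 1064 CPM in proliferative sums. The osteoblast and osteocyte list (11 genes) summed to 162.3 to 925.3 CPM in P28 hypertrophic sums and to 441.9 to 713 CPM in P28 proliferative sums, and at P2 to 47.3 to 1615 CPM in hypertrophic sums (highest in animal C) and to 95.8 to 314.4 CPM in proliferative sums. Its bone-specific member Bglap, osteocalcin, was at 0 counts in all tested ethanol hypertrophic libraries of both ages, while its members Col1a1, Col1a2, Sp7 and Ifitm5 had counts in some of them. Some libraries stand apart. The xylene library labelled hypertrophic, replicate 3, held 62780 CPM of Col1a1, the main bone collagen chain, but only 21.7 CPM of Bglap. It held 32.9 CPM of Col10a1, the collagen that defines hypertrophic chondrocytes, and 0 counts of Ihh, a signal made as chondrocytes enlarge. The resting library of P28 animal A held 14200 CPM of Col10a1. The resting library of P2 animal A held 24.6 CPM of Mepe, a bone cell gene that had counts in no other library. In captured tissue, fewer cells of a type and less RNA per cell cannot be told apart.

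Within each age, Alpl, Slc13a5, Slc37a2, Ibsp and Spp1 had their highest mean level in the hypertrophic zone, as did Phex at P28. Enpp1 had its highest mean in the resting zone at both ages and Ank in the proliferative zone at P28 and the hypertrophic zone at P2, with overlapping zones. At P28, 4 of the 8 members with enough counts to be tested (Alpl, Phex, Slc37a2 and Ibsp) were higher in hypertrophic than in proliferative sums by edgeR's quasi-likelihood test with Benjamini-Hochberg adjustment, where 38 of 6958 genes (0.546%) were higher and 40 (0.575%) lower. At P2, 5 members (the same 4 and Slc13a5) were higher, where 79 genes (1.14%) were higher and 82 (1.18%) lower. The median log2 change of the 8 members was 4.46 at P28 and 7.09 at P2, beside -0.52 and -0.36 over all genes tested. Against the resting zone, 4 members were higher in hypertrophic sums at P28 (Alpl, Phex, Slc13a5 and Ibsp; 1.22% of genes were higher) and 5 at P2 (Alpl, Phex, Slc13a5, Slc37a2 and Ibsp; 1.68% of genes were higher). Slc37a2, part of these counts and medians, had 0 counts in all proliferative and P2 resting sums. It entered the fit through its hypertrophic sums, so its calls set those sums against 0 counts. Between the resting and proliferative zones only Alpl passed among the members tested, lower in resting sums at P28 (0.417% of genes were lower) and at P2 (0.158% of genes). Phospho1 and Dmp1 had too few counts to be tested. Every passing change was refitted under 15 or 19 alternatives of scaling, tool, filter, depth minimum and animals, and 5 of the 25 member changes passed in all of them: Alpl against the resting zone at both ages, Alpl against the proliferative zone at P2, and Slc13a5 against both zones at P2. Animals whose omission ended one of the other calls are named beside it. Leaving out P2 animal C, E or F, or an animal of the other age, bears on a P2 zone call only through filter, scaling, fitted spread and adjustment.

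**Figure D1:**
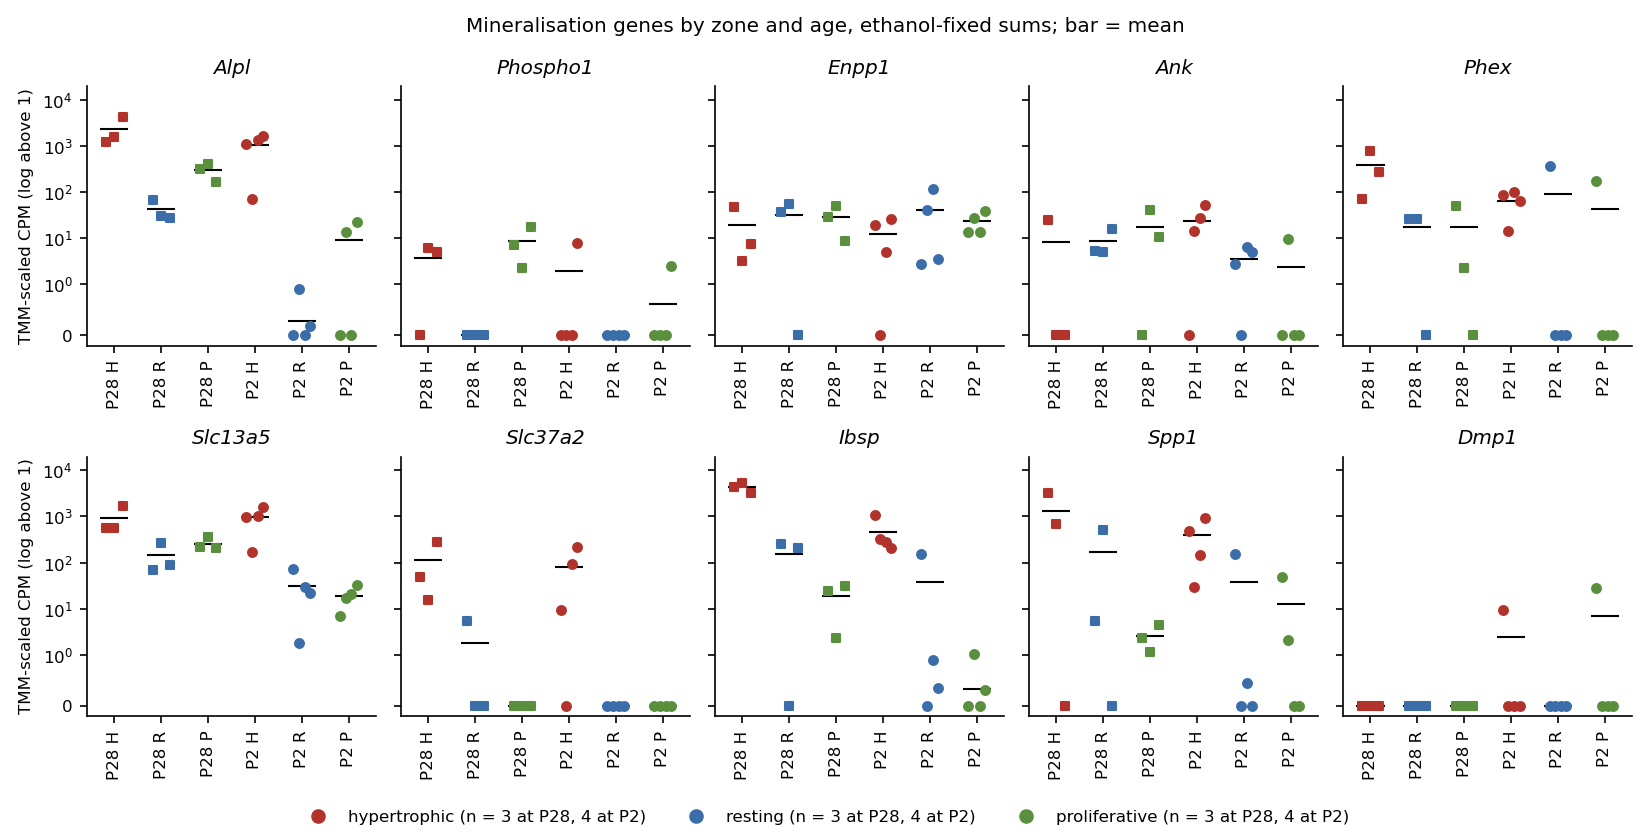
CPM after TMM scaling (log axis, linear below 1) of the 10 genes in each ethanol-fixed sum, hypertrophic (H), resting (R) and proliferative (P), P28 as squares and P2 as circles. Bars are means over 3 (P28) or 4 (P2) animals. Ibsp reached 3304 to 5300 CPM in P28 hypertrophic sums, while Enpp1 and Ank overlapped between all zones.

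Alpl, on chromosome 4 (137741733 to 137796384, minus strand, GRCm38), had its highest mean in the hypertrophic and its lowest in the resting zone at both ages. P28 hypertrophic sums held 1245, 1526 and 4170 CPM, resting sums 68.8, 30.4 and 27.2 CPM, and proliferative sums 319.7, 401.5 and 164.2 CPM. P2 hypertrophic sums held 1091, 72.1, 1377 and 1630 CPM, resting sums 0, 0.908, 0 and 0.179 CPM, and proliferative sums 0, 13.5, 0 and 22.1 CPM. The zones did not overlap at P28, and at P2 only the resting and proliferative zones did. The change between hypertrophic and proliferative sums was 2.94 ± 0.76 (log2, SE) at P28 (adjusted p = 0.0155) and 6.89 ± 0.90 at P2 (adjusted p = 3.16e-11), higher in 3 of 3 animals with both zones at each age. Against the resting zone it was 5.79 at P28 (adjusted p = 2.29e-08) and 11.84 at P2 (adjusted p = 6.12e-21). Alpl was also lower in resting than in proliferative sums, with a change of -2.85 ± 0.76 at P28 (adjusted p = 0.0343) and of -4.96 ± 1.03 at P2 (adjusted p = 0.00153), where the median over all genes was -0.81 and 0.15. The P28 change against the proliferative zone passed in 12 of 19 alternatives (adjusted p 0.000348 to 0.476), and not without P2 animal D or any 1 of the P28 animals. The resting change passed in 6 of 19 at P28 (0.00666 to 0.711), not without P2 animal A, D or G or any 1 P28 animal, and in 16 of 19 at P2 (2.29e-05 to 1), not without animal D or G.

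The zone difference of Alpl was smaller at P28 than at P2 (P28 minus P2 on the log2 scale, -3.95 ± 1.07), which did not pass the adjustment over all genes (adjusted p = 0.187). No gene (0%) passed there by edgeR's test (413 did at an unadjusted 0.05), while 74 passed by DESeq2's Wald test, Alpl among them (adjusted p = 0.0446). Alpl also passed by edgeR's test without P28 animal D (-4.95, adjusted p = 0.0071), and over its 19 alternatives the adjusted p ran from 0.0071 to 1. Within the proliferative zone Alpl was higher at P28, at 295.1 ± 120.5 CPM, than at P2, at 8.90 ± 10.9 CPM (n = 3 and 4), a change of 4.87 ± 1.17 (adjusted p = 0.00805; 0.424% of 4712 genes were higher at P28). The ages did not overlap there. It passed in 8 of 15 alternatives (adjusted p 0.000959 to 0.51), and not without P2 animal D or E or P28 animal A or B. The hypertrophic marker list was also higher in P28 than in P2 proliferative sums, in the ranges given above, and its part in the Alpl change was not tested. In the hypertrophic zone Alpl averaged 2314 ± 1614 CPM at P28 and 1042 ± 683.3 CPM at P2, and the ages overlapped. In the resting zone, where 3 members could be tested between the ages, none passed by edgeR's test, where 29 of 3327 genes (0.872%) passed, nor at an unadjusted 0.05, where 336 genes did, and none passed by DESeq2's test.

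Phospho1, the vesicle phosphatase, had 148 counts over all 68 libraries. It held 0, 6.24 and 4.94 CPM in P28 hypertrophic sums, 0 in all resting sums and 7.05, 2.26 and 17.3 CPM in P28 proliferative sums. At P2 all its counts came from animal G, at 7.64 CPM in the hypertrophic sum and 2.46 CPM in the proliferative sum. In xylene-fixed P28 sums it held 8.18 and 5.43 CPM in hypertrophic, 0 in resting and 0.772 and 10.6 CPM in proliferative sums. No P28 resting sum had a count, in ethanol (animals A, B and D) or in xylene (animals D and E). The P28 proliferative sums of these animals held 2 to 23 counts each. The ethanol resting sums were small (108601 to 260199 counts), and the zones were not tested. Its gene overlaps Zfp652 on the same strand and Abi3 on the other, and reads of overlapping genes may be shared.

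Enpp1, the enzyme that makes pyrophosphate from ATP, was low in every zone, with overlapping ranges. It held 48.2, 3.12 and 7.40 CPM in P28 hypertrophic sums, 37.0, 55.8 and 0 CPM in resting sums and 28.2, 50.9 and 8.64 CPM in proliferative sums. At P2 it held 0 to 26.3 CPM in hypertrophic, 2.73 to 118.3 CPM in resting and 13.6 to 38.4 CPM in proliferative sums. Ank, the pyrophosphate and ATP exporter, held 0 to 24.1 CPM in P28 hypertrophic, 5.07 to 15.5 CPM in resting and 0 to 40.7 CPM in proliferative sums. At P2 it held 0 to 51.1 CPM in hypertrophic, 0 to 6.32 CPM in resting and 0 to 9.34 CPM in proliferative sums. Neither gene passed in a zone or age comparison in which it was tested, and every neighbouring pair of groups in the order of levels overlapped for both.

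Slc13a5, a plasma membrane transporter that takes up citrate, which bone mineral also holds, lies on chromosome 11 (72241989 to 72267222, minus strand). P28 hypertrophic sums held 562.3, 565 and 1661 CPM, resting sums 68.8, 268.8 and 89.4 CPM, and proliferative sums 213.9, 354 and 203.1 CPM. P2 hypertrophic sums held 996.1, 173, 1020 and 1622 CPM, resting sums 71.1, 1.82, 29.8 and 22.0 CPM, and proliferative sums 6.84, 16.6, 20.3 and 32.9 CPM. Hypertrophic sums were above both other zones at each age, with no overlap. The change against the proliferative zone was 5.88 ± 0.91 at P2 (adjusted p = 8.17e-08) and 1.85 ± 0.78 at P28 (adjusted p = 0.300), and the difference between the ages, -4.03 ± 1.11, did not pass (adjusted p = 0.191; 0.0116 without P28 animal D, and 0.0116 to 1 over 19 alternatives). Against the resting zone it passed at P28, by 2.85 ± 0.83 (adjusted p = 0.0386), in 6 of 19 alternatives (0.0325 to 0.447) and not without P2 animal A, D or G or any 1 P28 animal. At P2 it passed by 5.77 (adjusted p = 4.69e-07). In the proliferative zone Slc13a5 averaged 257 ± 84.2 CPM at P28 and 19.2 ± 10.8 CPM at P2 (change 3.65 ± 1.12, adjusted p = 0.107).

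Alpl was the gene most like Slc13a5 of all genes tested, with a Pearson r of 0.911 between their log2 CPM (prior count 2), given as a description over 21 sums that share zones and animals. The resting zone set them apart. Per kilobase of exon, P28 resting sums averaged 28.8 ± 22.3 CPM of Slc13a5 and 10.5 ± 5.74 CPM of Alpl, with overlapping ranges. P2 resting sums averaged 6.31 ± 5.89 CPM per kilobase of Slc13a5, with a lowest value of 0.368, and 0.0674 ± 0.107 of Alpl, with a highest value of 0.225. The 4 P2 resting sums together held 2 Alpl counts.

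**Figure D2:**
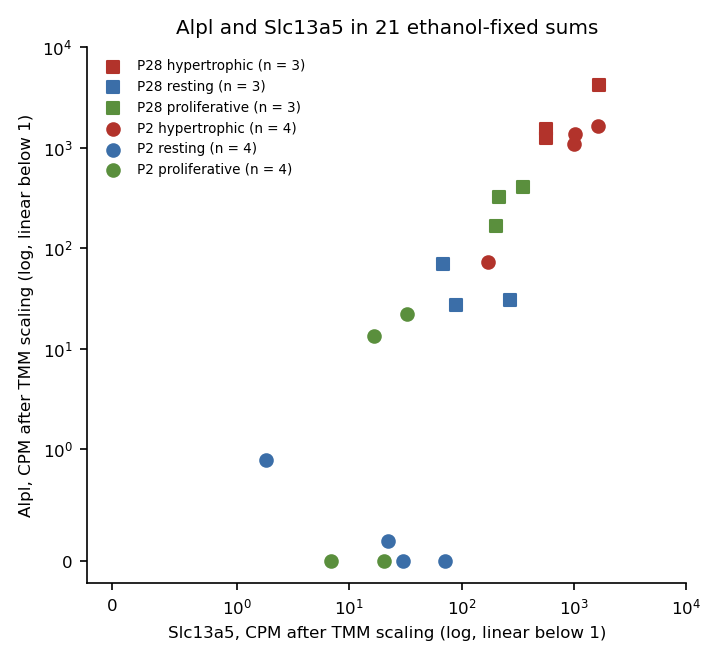
Alpl against Slc13a5, both in CPM after TMM scaling (log axes, linear below 1), in 21 ethanol-fixed sums, P28 as squares and P2 as circles. The hypertrophic sums lie at the upper right, and the P2 resting sums hold up to 71.1 CPM of Slc13a5 with Alpl under 1 CPM.

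Slc37a2, a sugar phosphate exchanger known from osteoclasts and macrophages in other tissues, was found in hypertrophic sums and, with 1 count, in 1 resting sum. P28 hypertrophic sums held 48.2, 15.6 and 283.8 CPM, resting sums 5.29, 0 and 0 CPM and proliferative sums 0 CPM throughout. P2 hypertrophic sums held 9.49, 0, 91.2 and 217.4 CPM, and the resting and proliferative sums held none. Counted over groups, hypertrophic sums were at least 87.6-fold higher than proliferative sums at P28 (126 against 0 counts, with a floor of 3 counts over the group) and at least 277-fold higher at P2 (493 against 0 counts). In each group most counts came from 1 animal, 115 of the 126 from animal D at P28 and 455 of the 493 from animal G at P2, and without it the bounds were at least 10.8-fold (11 counts) and at least 27.4-fold (38 counts). Since every proliferative sum was at 0, the gene entered the fit through its hypertrophic sums, and the test, which passed at P28 (adjusted p = 0.0165) and at P2 (adjusted p = 0.00511), sets those sums against 0 counts, and with no filter on low counts the P28 call was lost (adjusted p = 0.0578). The osteoclast list (10 genes) summed to 9.87 to 46.8 CPM in P28 hypertrophic and 40.0 to 69.1 CPM in P28 proliferative sums, and to 34.5 to 72.1 CPM in P2 hypertrophic and 0 to 78.9 CPM in P2 proliferative sums. The P28 call held in 11 of 19 alternatives (adjusted p 0.00228 to 0.584) and ended without any 1 of the P28 animals. The P2 call held in 16 (0.00108 to 0.476) and ended without P2 animal D or G, as did the call against the resting zone at P2 (0.0915 and 0.288), which held in 16 of 19 (0.000319 to 0.323).

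Phex, on chromosome X, was high in P28 hypertrophic sums, at 72.3, 783.4 and 273.9 CPM, against 26.5, 25.4 and 0 CPM in resting and 49.4, 2.26 and 0 CPM in proliferative sums. The change against the proliferative zone was 5.97 ± 1.51 (adjusted p = 0.0127), higher in 3 of 3 animals, and it passed in 13 of 19 alternatives (adjusted p 9.22e-07 to 0.626) but not without P28 animal B or D. Against the resting zone the P28 change was 5.47 (adjusted p = 0.00665), again not passing without animal B or D. At P2 Phex held 85.4, 14.4, 98.5 and 63.1 CPM in hypertrophic sums. The P2 resting and proliferative sums were at 0 except those of animal A, which held 358.2 CPM in the resting sum (131 counts) and 171 CPM in the proliferative sum (25 counts), both above that animal's hypertrophic sum. The fitted change at P2 was 7.29 ± 1.48 (adjusted p = 2.10e-04), higher in 2 of 3 animals with both zones and lower in animal A. This value rests on the animal term: without it the change was 0.77 (adjusted p = 0.913), and against the resting zone it was 6.57 with the term (adjusted p = 8.67e-04) and -0.39 without it (adjusted p = 0.963). Both P2 calls also ended without animal D or G, and over their 19 alternatives the adjusted p ran from 1.34e-06 to 0.913 and from 1.99e-07 to 0.963. The resting sum of animal A, a single library, also held Ibsp and Spp1, at 153.1 CPM each. Its osteoclast list summed to 311.7 CPM, the highest of the P2 resting sums. Its osteoblast and osteocyte list summed to 380 CPM, the lowest of the P2 resting sums, which reached 1769 CPM. Without that library the P2 change of Phex was 5.59 against the proliferative zone (adjusted p = 0.0992) and 8.49 against the resting zone (adjusted p = 7.48e-04). The part of bone and osteoclast cells in the Phex values was not tested further.

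The SIBLING genes Dmp1, Ibsp and Spp1 lie with Mepe in 238.4 kilobases of chromosome 5, where these 4 are the protein-coding genes of the annotation, each given by its coordinates: Dmp1 at 104202613 to 104214102, Ibsp at 104299171 to 104311469, Mepe at 104325329 to 104338611 and Spp1 at 104435118 to 104441050. Their levels differed: per kilobase of exon, P28 hypertrophic sums averaged 2102 ± 484 CPM of Ibsp and 779.7 ± 1017 CPM of Spp1 (n = 3) and held no Dmp1, and Mepe had 5 counts over all libraries. Promoter windows from RefSeq (GRCm38.p6, plus strand, 250 bases before to 50 after the start) are shown for the 3 members because they are neighbours with unlike levels. Spp1 and Dmp1 have 2 windows each there; the one that holds a match is shown, and the other holds neither motif. Capitals mark the RUNX core TGTGGT and the TATA box TATAAA on either strand, which 16.8% and 13.6% of 32851 such windows hold, and the motifs do not overlap one another here. A match is only a run of letters, not a shown binding site.
Ibsp, chr5:104299037-104299336: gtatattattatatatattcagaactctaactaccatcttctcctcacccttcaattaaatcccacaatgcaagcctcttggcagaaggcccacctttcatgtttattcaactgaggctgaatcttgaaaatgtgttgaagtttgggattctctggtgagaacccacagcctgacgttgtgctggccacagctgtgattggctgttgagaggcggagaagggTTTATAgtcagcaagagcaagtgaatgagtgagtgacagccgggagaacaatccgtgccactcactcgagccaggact
Spp1, chr5:104434861-104435160: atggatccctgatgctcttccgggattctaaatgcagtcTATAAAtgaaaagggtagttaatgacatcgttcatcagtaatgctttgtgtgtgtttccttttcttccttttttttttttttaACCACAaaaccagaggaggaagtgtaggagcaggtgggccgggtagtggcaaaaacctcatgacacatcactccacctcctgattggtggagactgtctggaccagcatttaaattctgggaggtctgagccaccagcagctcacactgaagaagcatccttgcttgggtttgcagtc
Dmp1, chr5:104202367-104202666: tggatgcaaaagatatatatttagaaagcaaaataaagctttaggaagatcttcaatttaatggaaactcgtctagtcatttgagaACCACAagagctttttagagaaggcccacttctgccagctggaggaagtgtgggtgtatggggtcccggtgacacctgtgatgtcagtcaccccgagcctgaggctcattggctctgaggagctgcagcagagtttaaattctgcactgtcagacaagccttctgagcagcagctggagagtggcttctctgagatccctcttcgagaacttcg
The Ibsp window has a TATA box match beginning at base -28 from the start, the Spp1 window a RUNX core at -128 and a TATA box at -211, and the Dmp1 window a RUNX core at -164.

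Ibsp, bone sialoprotein, a starter of crystals in bone, had the highest mean of the members in P28 hypertrophic sums on the per-length scale given above, above Alpl at 573.7 ± 400.1 CPM per kilobase. P28 hypertrophic sums held 4434, 5300 and 3304 CPM, resting sums 248.7, 0 and 206 CPM and proliferative sums 23.5, 2.26 and 30.2 CPM. P2 hypertrophic sums held 1063, 317.2, 280.9 and 210.2 CPM, resting sums 153.1, 0, 0.903 and 0.358 CPM and proliferative sums 0, 1.04, 0 and 0.307 CPM. Hypertrophic sums were above the other zones at both ages with no overlap. The change against the proliferative zone was 8.77 ± 1.32 at P28 (adjusted p = 1.14e-04) and 8.88 ± 1.38 at P2 (adjusted p = 5.27e-05), and against the resting zone 5.90 at P28 (adjusted p = 0.00359) and 6.21 at P2 (adjusted p = 0.00225). Against the proliferative zone the call held in 15 of 19 alternatives at P28 (adjusted p 2.44e-16 to 0.448) and in 16 at P2 (5.65e-15 to 0.122). It ended without P28 animal D, for the P2 zones too, with another scaling (RLE size factors, 0.119 at P28 and 0.0895 at P2), with the xylene sums added (0.112 and 0.0828) and, at P28, without the animal term (0.216), though the change stayed between 7.17 and 10.46 at P28 and between 8.45 and 9.55 at P2. Against the resting zone it also ended without P28 animal D, and at P28 without P2 animal F.

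Ibsp was the one member that passed between ages in the hypertrophic zone, at 4346 ± 1001 CPM in P28 and 467.7 ± 399 CPM in P2 sums (change 3.31 ± 0.76, adjusted p = 0.0495; 1 of 1963 genes, 0.0509%, was higher at P28). The ages did not overlap. The call held in 5 of 15 alternatives (adjusted p 1e-09 to 0.736) and ended without P2 animal D or G or any 1 of the P28 animals. In resting sums Ibsp was above the proliferative zone in some animals only, with a change of 2.87 (adjusted p = 0.274; 0.0457 without P2 animal A, and 0.00515 to 0.917 over 19 alternatives) at P28 and 2.67 (adjusted p = 1) at P2. Without P2 animal A the P2 value was -0.64. The P28 animal A resting library, which held the Col10a1 given above, also held 47 of the 100 Ibsp counts of the 3 P28 resting sums. The other 53 were in the resting sum of animal D, whose osteoclast list summed to 353.7 CPM, its red blood cell list to 695.8 CPM and its macrophage and myeloid list to 89.4 CPM, the highest of the P28 ethanol resting sums for each. Its osteoblast and osteocyte list summed to 62.2 CPM, the lowest of these sums, which reached 243.5 CPM. The part of these cells in the resting Ibsp values was not tested.

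Spp1, osteopontin, which can restrain crystal growth and is also made by macrophages and osteoclasts, varied widely between animals. P28 hypertrophic sums held 3181, 674.2 and 0 CPM, resting sums 5.29, 502.1 and 0 CPM and proliferative sums 2.35, 1.13 and 4.32 CPM. P2 hypertrophic sums held 493.3, 28.8, 147.8 and 918.2 CPM, resting sums 153.1, 0, 0.452 and 0 CPM and proliferative sums 47.9, 2.08, 0 and 0 CPM. The hypertrophic sum of P28 animal D had no Spp1 count beside 1339 Ibsp counts. Neither age passed against the proliferative zone (7.61 ± 4.69, adjusted p = 0.608, at P28; 8.54 ± 3.67, adjusted p = 0.347, at P2). The P2 change passed in 4 of 19 alternatives (adjusted p 1.26e-06 to 0.759), among them the fit without P28 animal A. The macrophage and myeloid list (11 genes) summed to 0, 202.9 and 0 CPM in the P28 hypertrophic sums of animals A, B and D, and the osteoclast list to 24.1, 46.8 and 9.87 CPM. The part of these cells in the Spp1 values was not tested. Dmp1, an osteocyte protein, had 0 counts in all P28 ethanol sums and 1 and 4 counts in the P2 animal A hypertrophic and proliferative sums, with none in the other P2 sums.

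**Figure D3:**
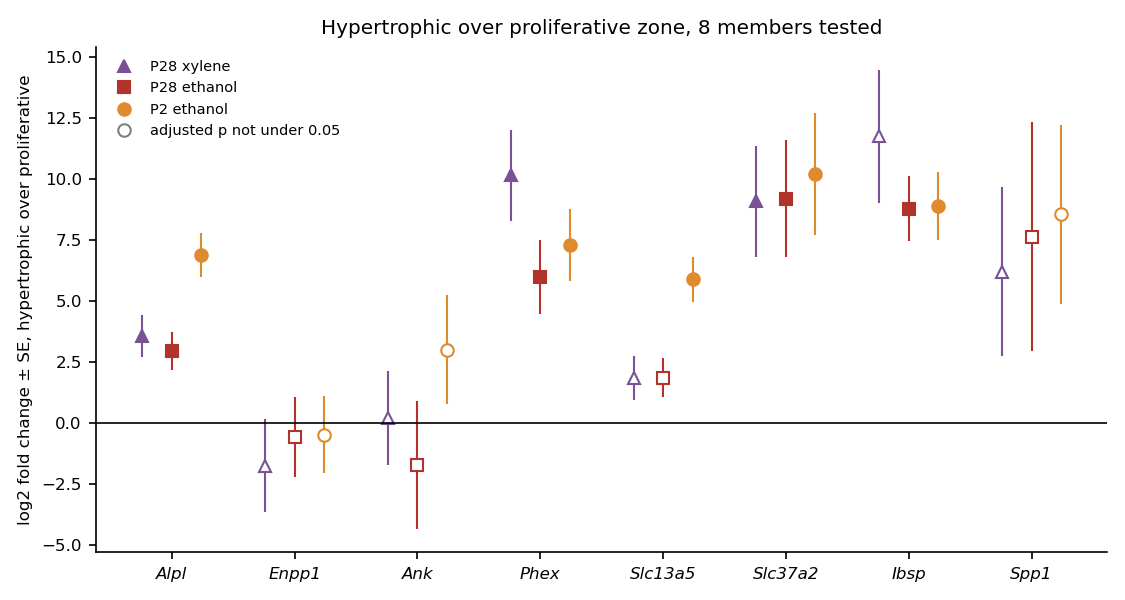
Log2 fold change with SE, hypertrophic over proliferative, of the 8 members tested, in xylene-fixed P28, ethanol-fixed P28 and ethanol-fixed P2 sums. Filled symbols passed an adjusted p of 0.05. Alpl was 2.94 at P28 and 6.89 at P2 in ethanol, while Ibsp was 8.77 and 8.88.

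In xylene-fixed P28 sections (6 sums from animals D and E, 2 per zone), Alpl, Phex and Slc37a2 passed between hypertrophic and proliferative sums, where 14 of 10717 genes (0.131%) were higher. Animal D also gave the ethanol sums of that name, so its xylene sums are not from a further animal. Alpl held 1447 and 5304 CPM in hypertrophic, 92.4 and 9.73 CPM in resting and 165.2 and 400.1 CPM in proliferative sums (hypertrophic against proliferative 3.55 ± 0.87, adjusted p = 0.0377). Phex held 195.9 and 342.2 CPM in hypertrophic, 19.8 and 0 CPM in resting and 0 and 0.459 CPM in proliferative sums (10.14 ± 1.87, adjusted p = 4.97e-04). Slc37a2 held 17.7 and 146.7 CPM in hypertrophic sums and none in the others (adjusted p = 0.0492), so this call too sets hypertrophic sums against 0 counts. Ibsp held 8504 and 7809 CPM in hypertrophic sums, against 2.32 and 2.30 CPM in proliferative sums, and its change of 11.74 ± 2.71 did not pass (adjusted p = 0.375). Over 19 alternatives the adjusted p ran from 0.000187 to 1 for Alpl, which passed in 8, from 4.4e-09 to 1 for Phex, which passed in 16, from 0.000459 to 1 for Slc37a2, which passed in 9, and from 6.88e-35 to 0.887 for Ibsp, which passed in 9. Calls of Alpl, Phex and Slc37a2 ended without animal D or E of P28, which leaves 1 xylene animal that is assumed to vary like the other groups, of Alpl and Slc37a2 without P2 animal D or G and of Alpl without P28 animal B or P2 animal F, while Ibsp passed without P28 animal B or P2 animal A, D or F.

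The library labelled hypertrophic, replicate 3, is part of the animal D sum. It held 49287 of the 64422 Ibsp counts and all 69 Dmp1 counts of that sum. Without that library the same 3 members passed, Alpl by 3.74 (adjusted p = 0.0174), Phex by 10.39 (adjusted p = 1.94e-04) and Slc37a2 by 9.34 (adjusted p = 0.0244), and Ibsp did not (11.04, adjusted p = 0.121). The other 3 libraries labelled hypertrophic of animal D held 611.9, 1032 and 5539 CPM of Ibsp, and that of animal E 7228 CPM. These are CPM over library totals, and the animal E library is the sum given above at 7809 CPM after TMM scaling. The osteoblast and osteocyte list summed to 56450 CPM in the animal D sum and to 335.1 CPM in that of animal E. The part of bone cells in the xylene results was not tested beyond leaving the library out.

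**Figure D4:**
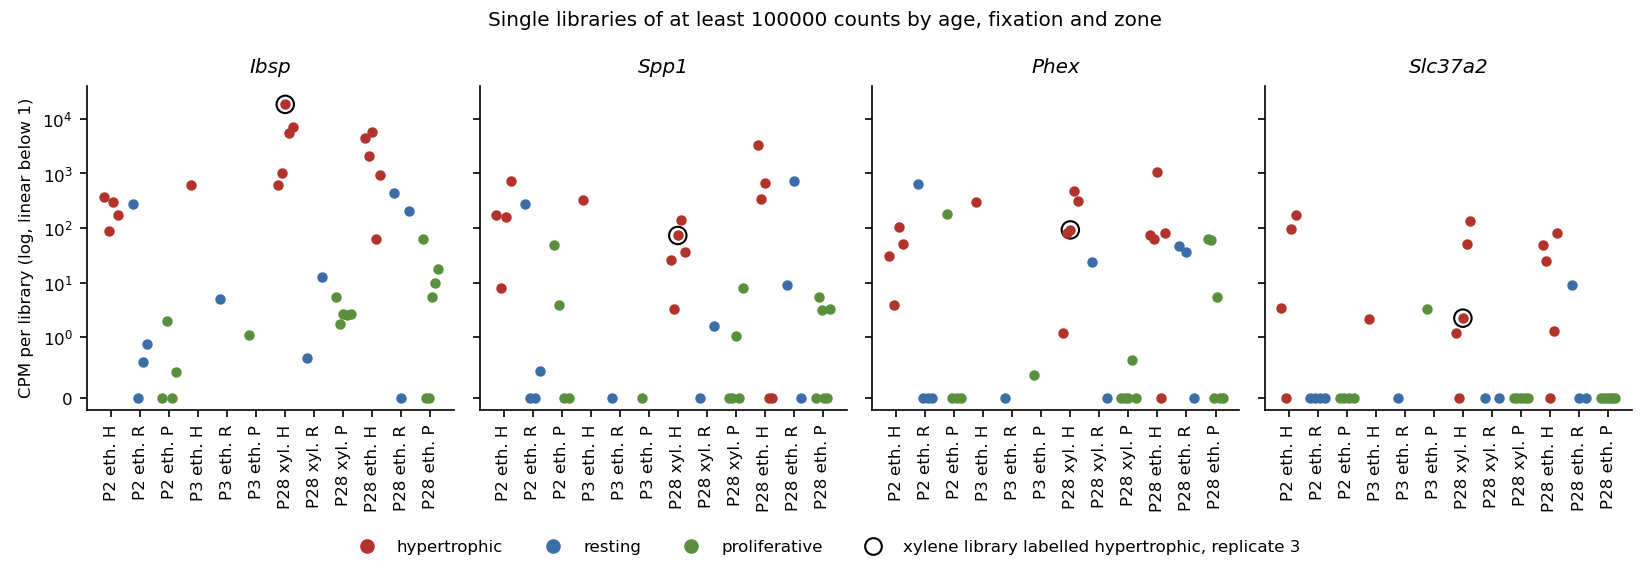
CPM per library (log axis, linear below 1) of Ibsp, Spp1, Phex and Slc37a2 in single libraries of at least 100000 counts, by age, fixation (xylene or ethanol) and zone (hypertrophic H, resting R, proliferative P). The ring marks the xylene library labelled hypertrophic, replicate 3, at 18430 CPM of Ibsp.

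The P3 animal had 1 library per zone and so no replicate, and its levels are CPM over library totals, without TMM factors. Its hypertrophic library held 1393 CPM of Alpl and 1389 CPM of Slc13a5. The resting library held 0.458 and 2.29 CPM of them, and the proliferative library 23.4 and 36.5 CPM. Ibsp was at 610.3 CPM in the hypertrophic, 5.04 CPM in the resting and 1.12 CPM in the proliferative library. Phex was at 302.3 CPM in the hypertrophic library, 0 in the resting and 0.372 CPM in the proliferative library, and Spp1 at 326.4 CPM in the hypertrophic library and 0 in the others. Slc37a2 was at 2.19 CPM in the hypertrophic, 0 in the resting and 3.35 CPM in the proliferative library.

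Other genes of mineral formation were followed in 5 lists, between hypertrophic and proliferative sums. The lists' median log2 changes ran from -1.15 to 0.33 at P28 and from -0.87 to 1.36 at P2, beside -0.52 and -0.36 over all genes. Of 10 tested genes of phosphate and pyrophosphate handling, Ppa1, a pyrophosphatase, fell in P28 hypertrophic sums to 319 ± 181.6 CPM, against 2013 ± 590.7 CPM in proliferative sums (-2.73 ± 0.77, adjusted p = 0.0354), and Sgms2, a sphingomyelin synthase, passed at P2 (4.25 ± 1.01, adjusted p = 0.00351) although its mean was 346.6 CPM in hypertrophic and 349 CPM in proliferative sums. Ppa1 passed in 8 of 19 alternatives (adjusted p 0.00263 to 0.527; not without P28 animal A or B or P2 animal A, C, D or G), and Sgms2 in 14 (3.02e-05 to 0.995), with a change of 1.65 without P2 animal G and of 0.03 without the animal term. None of 6 citrate handling genes passed at either age by edgeR's or DESeq2's test, and 0 did at an unadjusted 0.05. Of 6 matrix proteins tested, Ucma, an inhibitor of mineral in cartilage, fell to 39.0 ± 44.5 CPM in P28 hypertrophic sums, against 649.3 ± 255.8 CPM in proliferative sums (-4.35 ± 0.84, adjusted p = 1.82e-04), and to 7.45 ± 14.3 CPM in P2 hypertrophic sums, against 204.2 ± 57.7 CPM in proliferative sums (-8.36 ± 1.13, adjusted p = 2.34e-10). Fn1, fibronectin, rose at both ages (2.89 ± 0.63 at P28, adjusted p = 0.00164; 3.55 ± 0.67 at P2, adjusted p = 3.38e-05). Of 11 vesicle and calcium genes tested, Car12, a carbonic anhydrase, fell at P28 (-5.60 ± 1.22, adjusted p = 0.00164), and none passed at P2 (2 did at an unadjusted 0.05, and none by DESeq2's test). At P2 the Ucma call held in all 19 alternatives, and at P28 it ended without animal A (adjusted p = 0.0811; 2.55e-08 to 0.0894 over the alternatives). The Fn1 call ended without P28 animal A or B (up to 0.219) and without P2 animal G (up to 0.112), and that of Car12 without P28 animal A or D (up to 0.177).

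Of 10 tested regulators of maturation, 4 rose and 1 fell at P2, beside 1.14% and 1.18% of all genes, and none passed at P28 (4 did at an unadjusted 0.05, and 1 passed by DESeq2's test). Pth1r, the parathyroid hormone receptor, reached 3972 ± 1499 CPM in P2 hypertrophic and 362.4 ± 121.2 CPM in proliferative sums (3.85 ± 0.60, adjusted p = 1.18e-07). Ihh (8.38 ± 1.71, adjusted p = 2.10e-04), Mef2c, a transcription factor of hypertrophy (2.70 ± 0.74, adjusted p = 0.0198), and the growth factor Bmp2 (6.60 ± 1.95, adjusted p = 0.0367) also rose. Runx3, a RUNX factor, fell (-3.80 ± 1.13, adjusted p = 0.0388). Pth1r passed in all 19 alternatives and Ihh in 18 (not without P2 animal G, adjusted p = 0.259), while Mef2c passed in 12, Runx3 in 10 and Bmp2 in 8, none of these without P2 animal A, D or G. Runx3 and Bmp2 also failed without P28 animal A or B, and Runx3 without P2 animal E. The lists were chosen with earlier results of these data known.

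By Pearson r of log2 CPM over the 21 sums, the genes most like each member differed by member. Alpl was most like Col10a1 (0.926), Spon2 (0.921) and Ccdc80 (0.915), and Slc13a5 was followed after Alpl by Pth1r (0.878) and Ccdc80 (0.855). Ibsp was most like Aldh1a3 (0.840), Col10a1 (0.809) and Ddit4l (0.774), Spp1 was like Alox12 (0.790) and Ddit4l (0.759), and Slc37a2 like Srl (0.962), Plekhn1 (0.931) and Irx5 (0.925). Phex was most like Hivep1 (0.835), Fos (0.803) and Gsk3b (0.755). The highest values were lower for Enpp1 (0.747, Eri3) and Ank (0.674, Ing4). All sums share zones and animals, and likeness in a few high sums is enough for such values.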

How the data were processed

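Growth plate zones were cut from stained frozen sections by laser capture and lysed without RNA extraction, and SMART-seq2 libraries were made, per the labels' protocols. The authors deposited whole-number counts per gene symbol, not normalized; the submitters' processing notes name cutadapt, STAR 2.5.2b, featureCounts 1.5.3 and mm10, and the use of strand is not given in the sources used here. The table has 100 columns for 68 libraries. For 32 libraries it holds 2 columns, whose counts differed by no more than sampling noise (chi-square per degree of freedom up to 1.128), and these were added as 2 runs of 1 library.

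Libraries of at least 100000 counts were summed per animal and zone. Zones were tested with edgeR 4.0.16 (R 4.3.3, TMM scaling, filterByExpr, robust quasi-likelihood F-test, Benjamini-Hochberg adjustment over all genes tested at 0.05) in 1 fit of 21 ethanol sums with the animal as a block (8 residual degrees of freedom), and with 6 xylene sums added for the xylene zones (10 residual degrees of freedom). With the xylene sums the block was the animal within a fixation, so P28 animal D formed separate blocks for ethanol and xylene. Each zone's age comparison had a term for whether the labels carry a coded description (the deposit set) and 4 residual degrees of freedom. Zones are paired because the labels, with trailing numbers dropped, give them the same animal. The correlation of deviations between zones of an animal was -0.00358 to 0.187. Each SE is the log2 change divided by the square root of F. Alternatives were RLE size factors, DESeq2 1.42.0, no filter, no block, other depth minimums, other animal definitions, single libraries and leaving out each animal. Coordinates are from GENCODE's GRCm38 annotation (vM21), the build that mm10 names, and promoter windows from RefSeq.

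The members and the gene lists were chosen with earlier results of these data known. Named are all 10 members, up to 4 passing genes per pathway list and age, and the 3 genes most like each member by Pearson correlation of log2 CPM (prior count 2); 1 of these genes is not reported here.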

Additional observations from a re-analysis of the deposited data

Results flagged for a closer look

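Libraries under 100000 counts, which entered no test, held more counts of 6 members in the hypertrophic than in the proliferative zone, beyond counting error, at one age or both. Counting error here treats reads pooled over libraries as independent and leaves out the spread between libraries and animals. The 4 such P28 hypertrophic libraries (140269 counts in all) held 159 Ibsp, 68 Alpl, 54 Spp1, 11 Dmp1 and 9 Phex counts, while the 3 such P28 proliferative libraries (134949 counts) held 6 Ibsp and 28 Alpl counts and none of the other 3. Of these, 123 Ibsp, 45 Alpl, 53 Spp1 and 5 Phex counts were in hypertrophic replicate 1, of animal A. All 11 Dmp1 counts were in hypertrophic replicate 4, of the same animal. The 4 such P2 hypertrophic libraries (176164 counts) held 21 Alpl, 16 Slc13a5 and 14 Ibsp counts, and the 4 proliferative ones (129445 counts) held 2 Alpl counts and none of the other 2. The order was the other way for Slc13a5 at P28 (16 hypertrophic, 92 resting and 32 proliferative counts) and at P2 for Enpp1 (0 hypertrophic and 5 proliferative counts) and Dmp1 (0 and 2 counts).

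Groups of P2 ethanol sums and of P28 hypertrophic xylene libraries with enough counts were examined, and P28 ethanol sums, 3 per zone, were not. In 7 of 29 groups examined, 1 sample lay far from the others, where chance gives about 1 in 20 independent groups. These groups share animals, and some hold a single value above 0, so that rate is only a guide. At P2, animal A stood apart in 5 of them: Phex at 171 CPM in the proliferative and 358.2 CPM in the resting sum, Ibsp at 1063 CPM in the hypertrophic and 153.1 CPM in the resting sum, and Spp1 at 153.1 CPM in the resting sum. Phospho1 stood apart in the hypertrophic sum of P2 animal G, at 7.64 CPM with the other 3 sums at 0. Dmp1 stood apart in the xylene library labelled hypertrophic, replicate 3, at 25.8 CPM.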

How the results depend on the processing

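Depth limits what could be called: sums start at 108601 counts, Rn45s included. Most P2 and P28 zones rest on 3 or 4 animals, and the P2 zone changes on the 3 animals with all zones. Of the 25 member changes that passed, 5 did so in every alternative, and over all named changes 674 refits kept direction and side of the threshold, 179 lost it, 24 gained it and 4 reversed. Scaling moved the median of all genes: RLE size factors shifted it by 0.14 between hypertrophic and proliferative, by 0.57 between resting and proliferative and by -0.39 between hypertrophic and resting sums at P28.

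The counts of members passing changed as follows; where no value shows a cause, the cause was not tested. Between hypertrophic and proliferative sums at P28 (4 as reported), 2 passed with RLE size factors, 1 with no filter and 1 at a minimum of 50000 counts. In xylene (3 as reported), 1 passed with no filter and 5 either without Rn45s, Lars2 and Glra2 or with single libraries. Between hypertrophic and resting sums at P28 (4), 1 passed with RLE and 2 by DESeq2. Between resting and proliferative sums (1 at each age), 0 passed at P2 with single libraries, and 0 at P28 with RLE, DESeq2, no filter, 50000 counts or single libraries. For the difference of the zone change between ages (0), 2 passed by DESeq2 or with each full animal label as an animal. Between ages, the hypertrophic zone (1) gave 0 with no filter, 50000 counts, full animal labels, single libraries or no deposit set term and 2 members without Rn45s, Lars2 and Glra2. The proliferative zone (1) gave 0 with no filter, 50000 counts or without those 3 genes and 2 by DESeq2 or full labels, and the resting zone (0) gave 1 without those 3 genes.

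Without the animal block that pairs the zones, 0 members passed between hypertrophic and proliferative sums at P28, 0 in xylene and 0 between resting and proliferative sums at P28, 1 passed between hypertrophic and resting sums at P28 and 3 at P2, and the Phex change against the resting zone at P2 turned to -0.39. Ibsp between resting and proliferative sums at P2 turned to -0.74 without the 3 genes and to -0.43 without the P2 animal A resting library. That last setting, and leaving out the xylene library, were chosen after seeing the data; without the P2 library, 2 members passed between resting and proliferative sums at P28.

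Leaving out each animal in turn gave 0 to 4 members between hypertrophic and proliferative, 1 to 4 between hypertrophic and resting and 0 to 1 between resting and proliferative sums at P28, and 3 to 6, 3 to 6 and 0 to 1 at P2. It gave 0 to 2 for the difference between the ages' zone changes, 0 to 1 for each age comparison within the hypertrophic and proliferative zones, and 0 to 4 in xylene. Ibsp between resting and proliferative sums at P2 ran from -0.64 to 4.15.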
